A study of Homo sapiens with 24 samples.

Results

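The 9 genes described here encode complement components and regulators. The regulators are the membrane proteins CD55, CD46 and CD59 and the fluid-phase regulator clusterin (CLU). The components are the classical pathway proteases C1R and C1S, the central component C3, and the alternative pathway proteases complement factor B (CFB) and factor D (CFD). All 9 were taken from the deposited table by symbol, which gave 10 of its 18889 rows, since 2 gene IDs carry the symbol CFB. They were chosen by values of this table, the glucose and cell line contrasts of the same samples, so their changes are given below as descriptions with errors and without p-values. The question behind the samples is how a diabetes-like glucose level alters gene expression in estrogen receptor-positive (ER+) breast cancer cells. HCC1500, MDA-MB-175 and ZR-75-30, established human breast carcinoma lines with no engineered allele named in the labels, were first conditioned in low glucose and then kept for 48 hours in serum-free medium with 5 mM glucose (low, the control) or 25 mM glucose (high). Each of the 6 groups had 4 replicates. Nothing says that these were grown as independent experiments, so errors and p-values measure the spread between these samples, which may be technical.

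Complement is a cascade of proteases in body fluids. C1R and C1S start the classical pathway, factor D cuts factor B to build the alternative pathway convertase, and both routes cleave C3, whose fragment C3b coats the target, before the terminal components from C5 onward assemble a pore. Host cells protect themselves at the surface: CD55 (decay-accelerating factor) takes the C3 and C5 convertases apart, CD46 (membrane cofactor protein) helps factor I to inactivate C3b and C4b, and CD59 blocks the last step of the pore. CD55 and CD59 hang on a glycosylphosphatidylinositol (GPI) anchor, while CD46 spans the membrane. Clusterin, a secreted chaperone, keeps the terminal complex from inserting. Tumor cells of many epithelial origins carry the 3 membrane regulators.

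CD55 and CD46 lie on chromosome 1 in the cluster of complement regulators, at 207494864 to 207560149 and 207925382 to 207968858 on the plus strand, and CD59 lies on chromosome 11 at 33724556 to 33758025 on the minus strand (GRCh37, GENCODE genes lifted to that build). The promoters of these genes are shown because their transcripts are the ones whose glucose differences are described first. Each line gives the 250 bases before the most upstream start in the RefSeq promoter table (build GRCh38.p14), 5′ to 3′ on the gene's strand. Capitals mark a GC box (GGGCGG) or a CCAAT box (CCAAT) on either strand.
CD55, chr1:207321428-207321677, plus strand: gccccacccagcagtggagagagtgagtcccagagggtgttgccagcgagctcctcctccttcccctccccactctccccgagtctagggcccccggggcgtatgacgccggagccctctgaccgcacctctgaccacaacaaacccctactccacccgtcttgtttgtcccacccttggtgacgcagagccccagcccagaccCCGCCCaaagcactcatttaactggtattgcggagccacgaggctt
CD46, chr1:207751788-207752037, plus strand: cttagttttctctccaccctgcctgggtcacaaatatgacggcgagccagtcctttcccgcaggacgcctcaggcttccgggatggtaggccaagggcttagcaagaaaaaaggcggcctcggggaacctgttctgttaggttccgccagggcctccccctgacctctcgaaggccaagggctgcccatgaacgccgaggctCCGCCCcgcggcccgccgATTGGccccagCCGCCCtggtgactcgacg
CD59, chr11:33736480-33736729, minus strand: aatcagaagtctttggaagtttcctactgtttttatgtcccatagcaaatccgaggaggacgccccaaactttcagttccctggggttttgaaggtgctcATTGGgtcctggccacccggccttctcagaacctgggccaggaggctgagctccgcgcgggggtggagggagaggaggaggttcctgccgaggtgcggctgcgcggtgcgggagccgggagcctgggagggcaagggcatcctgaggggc
The CD55 window held 1 GC box, the CD46 window 2 and the CD59 window 0, against at least 1 in 42.2% of 27303 promoter windows of the same length. A CCAAT box occurred once in the CD46 window and once in the CD59 window, as in 33.0% of all windows. None of the 3 windows held the E-box CACGTG (6.5% of windows), the AP-1 motif TGACTCA (4.2%), the cyclic AMP element TGACGTCA (1.8%), the TATA box TATAAA (11.2%), the hypoxia element core ACGTG (18.6%), which is part of that E-box, or TTCCNGGAA (1.0%), a site of the kind STAT factors bind. The shorter core TGACG of that cyclic AMP element occurred 2 times in the CD55 window and 1 time in the CD46 window (21.6% of windows), and the kappaB-like motif GGGNNNTCC 1 time in the CD59 window (18.1%). These shorter matches are not capitalized. The GC content was 64.0% for CD55, 64.8% for CD46 and 62.0% for CD59, with a median of 57.6% over all windows.

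Values are normalized read counts as deposited. The samples held 9140024 to 17998819 recovered reads, and a count of 3 reads corresponded to 0.953 to 2.29 normalized read counts. All 8 luminal epithelial markers (ESR1, GATA3, FOXA1, KRT8, KRT18, KRT19, EPCAM and CDH1) averaged at least 10 in every group. However, CDH1 (E-cadherin) held 55.6 in ZR-75-30 against 6498 in MDA-MB-175 and 8223 in HCC1500 at low glucose. In ZR-75-30 KRT19 held 9921 at low and 5921 at high glucose (limma adjusted p = 8.32e-09). GATA3, FOXA1, KRT8 and KRT18 were also called lower there, and EPCAM rose from 1318 to 1536 (limma adjusted p = 8.32e-05). In MDA-MB-175 ESR1 fell from 335 to 258 (limma adjusted p = 2.67e-05). FOXA1, KRT19 and CDH1 were also called lower in that line, and KRT18 higher. In HCC1500 CDH1 was called lower. Without high glucose replicate 3, ESR1, KRT8 and EPCAM were called higher there and the others lower. The 3 of 6 leukocyte markers measured summed to between 0 and 27.5, the 5 fibroblast markers to between 78.6 and 295, and the 3 of 4 endothelial markers to between 75.3 and 95.3 in MDA-MB-175 and at most 10.7 elsewhere. Some of these leukocyte, fibroblast and endothelial markers changed with glucose, in both directions. CD14 rose from 1.79 to 15.0 in HCC1500 (limma adjusted p = 0.00497). LUM rose from 21.9 to 58.7 in MDA-MB-175 (limma adjusted p = 4.41e-06) and from 29.5 to 47.1 in HCC1500 (adjusted p = 0.00831). COL1A2 fell from 18.8 to 10.7 in MDA-MB-175 (limma adjusted p = 0.00861). COL1A1 in HCC1500 held 241 at low and 193 at high glucose (limma adjusted p = 0.0584). Without high glucose replicate 3 it was called lower (limma adjusted p = 2.21e-05). Their part in the results was not tested. TXNIP, which glucose induces, was higher at high glucose in each line. HCC1500 high glucose replicate 3 stood apart from its group: its mean correlation with the others was 0.911, against 0.991 for each of the other 3, and 24.7% of genes were over 1 log2 unit from the others' mean. Results from HCC1500 are therefore given with and without it. In HCC1500 the low glucose samples were also the deeper ones, with 13190982 to 17998819 reads against 9423472 to 12140912.

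The mean of each of the 3 membrane regulators was higher at high glucose in every line, and CD55 had the largest log2 change in each. The groups overlapped for CD46 in HCC1500, and did not without replicate 3. In MDA-MB-175, CD55 measured 315, 312, 321 and 313 normalized read counts in the low glucose samples and 649, 595, 620 and 604 in the high glucose samples. The groups did not overlap, and the ratio of the means was 1.96. Its fitted log2 change was 0.97 ± 0.05 (SE, 95% interval 0.87 to 1.06). In ZR-75-30 the low glucose samples held 210, 226, 245 and 227 and the high glucose samples 791, 830, 788 and 798. This was the widest separation among the 9 genes, a ratio of 3.53 with a log2 change of 1.82 ± 0.05 (SE, 95% interval 1.71 to 1.92). In HCC1500 CD55 measured 135, 139, 128 and 118 at low glucose and 179, 189, 280 and 200 at high glucose, where 280 belongs to replicate 3. Every high glucose sample again exceeded every low glucose sample. The log2 change in this line was 0.68 ± 0.15 (SE, 95% interval 0.35 to 1.02), and 0.54 ± 0.07 without replicate 3. The interval in ZR-75-30 lay above those of the other lines. In bulk RNA, fewer cells that carry a transcript and less of it per cell cannot be told apart.

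**Figure D1:**
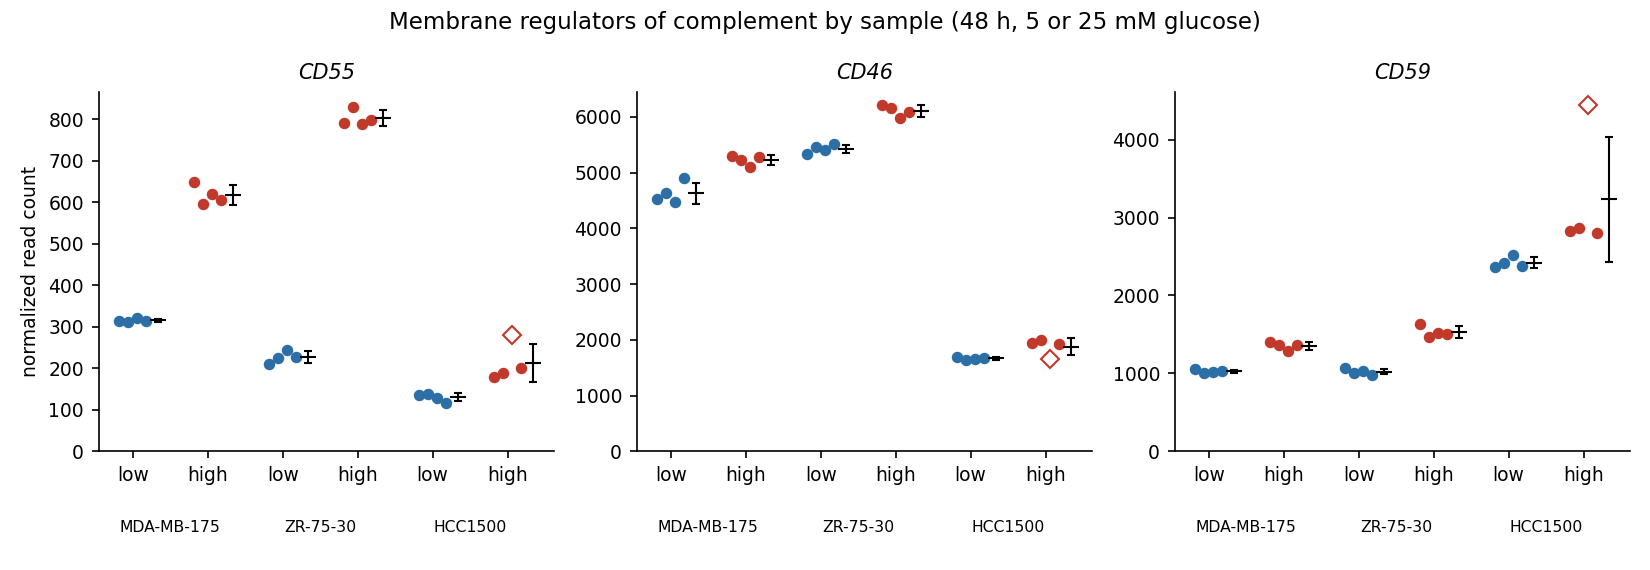
Normalized read counts (vertical axis, from 0) of CD55, CD46 and CD59 in each sample at low (blue) and high glucose (red) in the 3 lines; bars are mean ± SD of 4 samples and the open diamond is HCC1500 high glucose replicate 3. CD55 and CD59 have no overlap between glucose levels in any line, and the diamond lies below the other high glucose samples for CD46 and far above them for CD59.

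CD59, the inhibitor of pore assembly, followed the same direction with smaller steps. In MDA-MB-175 its 4 low glucose samples held 1053, 1006, 1013 and 1032 and its high glucose samples 1397, 1366, 1288 and 1362. The groups did not overlap, with a log2 change of 0.40 ± 0.04 (SE, 95% interval 0.31 to 0.48). ZR-75-30 had 1070, 1011, 1028 and 983 at low glucose and 1635, 1465, 1518 and 1508 at high glucose. The log2 change there was 0.58 ± 0.04 (SE, 95% interval 0.49 to 0.67), also without overlap. In HCC1500, where the gene was already at its highest, the low glucose samples held 2366, 2416, 2519 and 2373 and the high glucose samples 2829, 2862, 4438 and 2805. The value of 4438 is replicate 3, and the other 3 high glucose samples lay within 2805 to 2862, still above every low glucose sample. With it the log2 change was 0.39 ± 0.15 (SE, 95% interval 0.05 to 0.73), and without it 0.23 ± 0.03 (SE, 95% interval 0.17 to 0.29). Of the exonic bases of CD59, 629 are shared with another protein-coding gene model on the same strand, so part of its reads could have been assigned there.

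CD46, the most abundant of the 3 per kilobase of transcript, was higher by a smaller margin. In MDA-MB-175 the low glucose samples held 4525, 4636, 4466 and 4897 and the high glucose samples 5298, 5223, 5111 and 5285. In ZR-75-30 they held 5338, 5467, 5407 and 5509 against 6219, 6152, 5979 and 6085. Neither line had an overlap, and the means differed by 12.9% and 12.5%, with log2 changes of 0.18 ± 0.04 and 0.17 ± 0.03 (SE). HCC1500 held 1693, 1635, 1656 and 1682 at low glucose and 1943, 1993, 1650 and 1918 at high glucose. Its replicate 3, at 1650, lay among the low glucose samples, and with it the interval of the log2 change ran from -0.02 to 0.35. Without it the groups separated, with a log2 change of 0.23 ± 0.03 (SE).

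The secreted members did not share this pattern. Clusterin in MDA-MB-175 overlapped between glucose levels, at 1962, 1786, 1904 and 1693 against 1870, 1745, 1663 and 1837. In ZR-75-30 CLU held 2833, 2747, 3042 and 2722 at low glucose and 3300, 3373, 3448 and 3038 at high glucose, where the lowest high glucose sample was just under the highest low glucose sample. The log2 change was -0.05 ± 0.05 in the first line and 0.21 ± 0.04 (SE) in the second. In HCC1500 the low glucose samples held 2393, 2562, 2475 and 2515, while the high glucose samples held 1716, 1631, 3445 and 1725. Replicate 3, at 3445, was 2.04 times the mean of the other 3 and stood above every low glucose sample, whereas the other 3 stood below. The log2 change of CLU in this line was -0.30 ± 0.22 (SE, 95% interval -0.81 to 0.21) with replicate 3 and -0.56 ± 0.03 (SE, 95% interval -0.62 to -0.49) without it.

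C1R (chromosome 12, 7187513 to 7245203, minus strand, GRCh37), the protease that activates C1S, was lower at high glucose in HCC1500. There it measured 111, 134, 118 and 121 at low glucose and 59.6, 65.7, 80.2 and 48.5 at high glucose. The groups did not overlap, the ratio of the means was 0.524, and the log2 change was -0.94 ± 0.16 (SE, 95% interval -1.30 to -0.58), or -1.06 ± 0.10 without replicate 3. In MDA-MB-175 C1R held 49.0, 37.5, 42.1 and 46.3 against 45.3, 51.1, 49.97 and 52.0, and in ZR-75-30 11.1, 6.26, 11.4 and 16.0 against 19.3, 10.1, 18.3 and 13.7. Both pairs of groups overlapped, with log2 changes of 0.18 ± 0.12 and 0.45 ± 0.28 (SE). C1R shares 672 exonic bases on the same strand with its neighbour C1RL, which is described below and differed by a similar amount in HCC1500, so reads of the pair may have been split. The libraries of this line also differed in depth between glucose levels, as given above. ALB, the only hepatocyte marker measured, also stood lower at high glucose in HCC1500, at 4802 to 5000 in the low and 2052 to 3489 in the high glucose samples, and was at most 3.56 in the other lines. The part of depth and of ALB in the differences of HCC1500 was not tested.

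**Figure D2:**
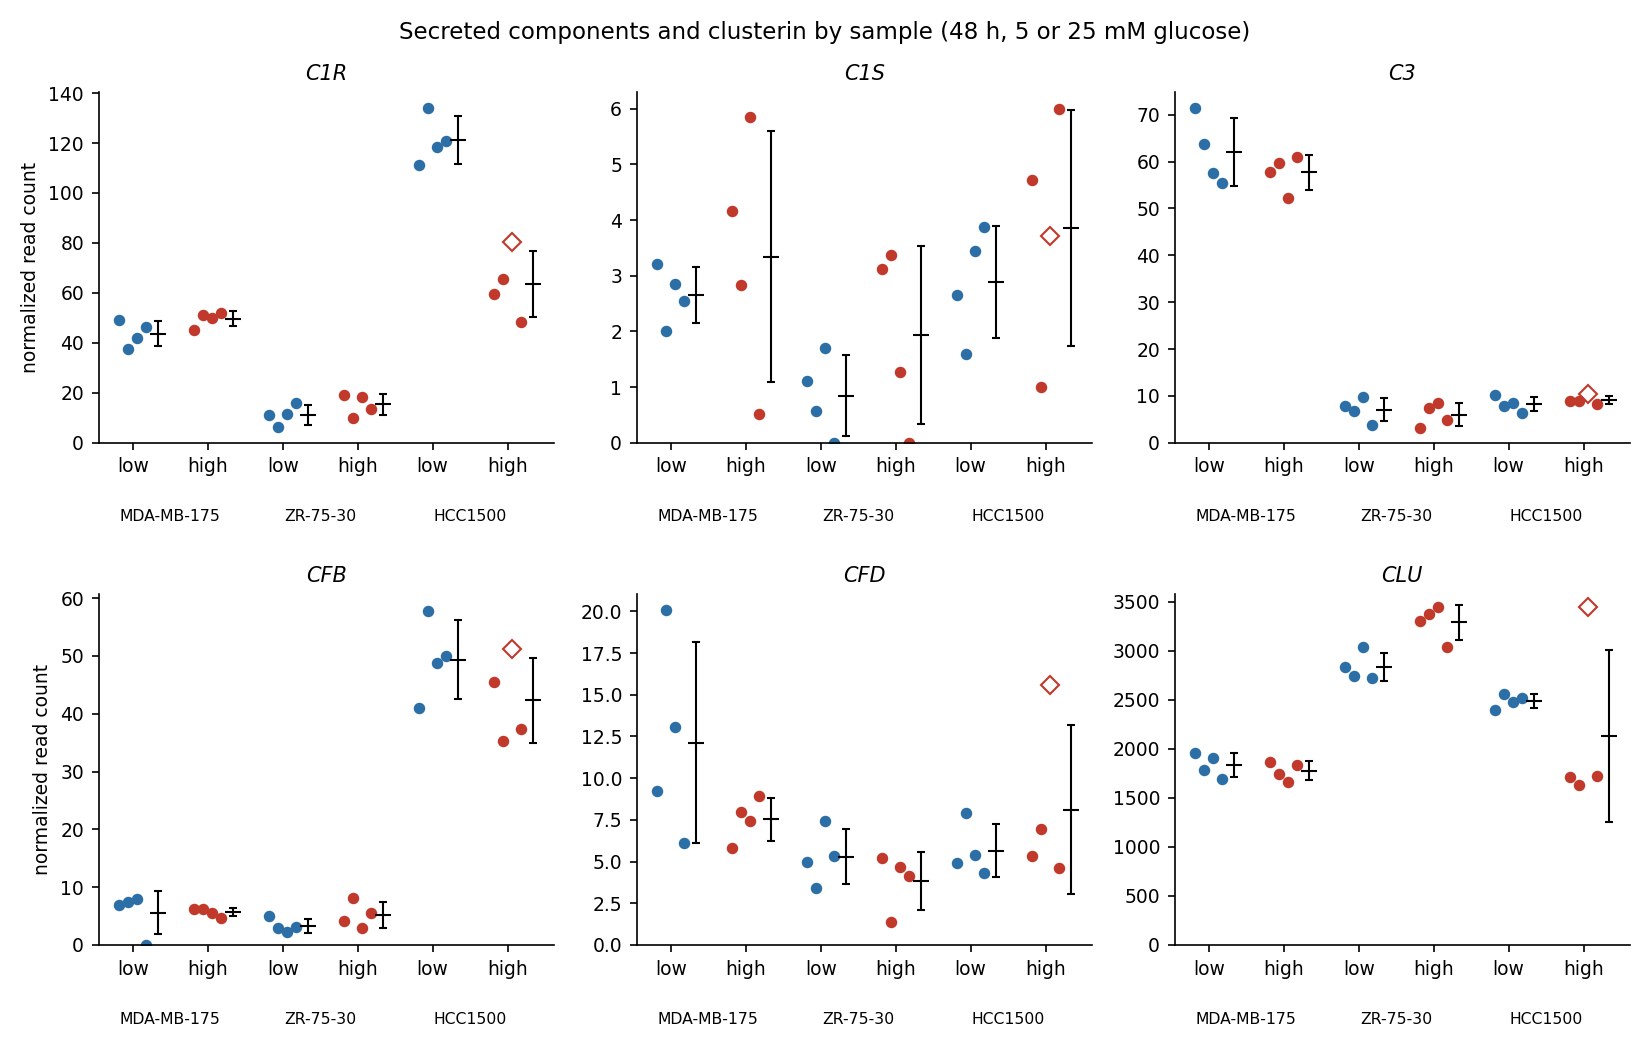
Normalized read counts (vertical axes, from 0, on a scale of their own in each panel) of C1R, C1S, C3, CFB, CFD and CLU in each sample at low (blue) and high glucose (red); bars are mean ± SD of 4 samples and the open diamond is HCC1500 high glucose replicate 3. C1R is lower at high glucose in HCC1500 without overlap, while C1S stays at or under 6.001 and CFD at or under 20.1 in all samples.

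The remaining members overlapped between glucose levels in every line. On GRCh37, C3 lies on chromosome 19 at 6677715 to 6730573, CFD on the same chromosome at 859453 to 867884, CFB on chromosome 6 at 31913427 to 31919863 and C1S on chromosome 12 at 7096351 to 7178336. C3, the component that the convertases cut, averaged 62.0 ± 7.18 at low and 57.7 ± 3.81 at high glucose in MDA-MB-175 (SD, n = 4), and between 5.96 and 9.13 in the 4 groups of the other lines. CFB averaged 49.4 ± 6.86 at low and 42.3 ± 7.36 at high glucose in HCC1500 (SD, n = 4), and between 3.29 and 5.67 elsewhere. Without replicate 3 its mean at high glucose was 39.4, with a log2 change of -0.32 ± 0.14 (SE, 95% interval -0.60 to -0.03), although 45.4 in replicate 1 still lay within the low glucose range of 41.0 to 57.8. CFD ran from 1.35 to 20.1 over all samples, and C1S from 0 to 6.001. The intervals of these 2 genes were wide in every line. CFD in MDA-MB-175 had a log2 change of -0.52 ± 0.30 (SE, 95% interval -1.15 to 0.11), which ranged from -0.78 to -0.25 when 1 sample was left out and was called lower at -0.78, without low glucose replicate 4.

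Over the 9 symbols, 9 of the 10 rows passed the filter on low values in each line. The limma fit called 3 of them higher and 0 lower in MDA-MB-175, where it called 25.7% of all genes tested (11.9% higher, 13.7% lower). In ZR-75-30 it called 4 higher and 0 lower, against 46.0% of all genes (23.4% higher, 22.7% lower). HCC1500 had 1 higher and 1 lower, against 20.5% (7.46% higher, 13.0% lower), and without replicate 3 it had 3 higher and 2 lower, against 58.5% (20.9% higher, 37.7% lower). The median log2 change of the tested rows was 0.18, 0.45 and 0.17 in the 3 lines, and 0.08 in HCC1500 without replicate 3. Over all genes tested it was -0.02, 0.01, -0.06 and -0.12. In these limma fits per line, CD55 was the only member called higher in all 3 lines, as were 1.81% of the 14636 genes tested in each. CD59 was also called higher in all 3 lines with median-of-ratios scaling, rescaling to CPM, edgeR or DESeq2. The fit on all 24 samples called both CD59 and CD46 higher in all 3 lines as well. That fit no longer called CLU in ZR-75-30. Without HCC1500 high glucose replicate 3, CD55, CD46 and CD59 were all called higher in all 3 lines, as were 3.73% of 14572 genes. Since the members were picked with these contrasts known, nothing is read from these counts. In HCC1500 the share of higher among all calls was 36.4% as deposited, 48.9% with median-of-ratios scaling, 47.8% with edgeR and 52.4% with DESeq2 on recovered reads.

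**Figure D3:**
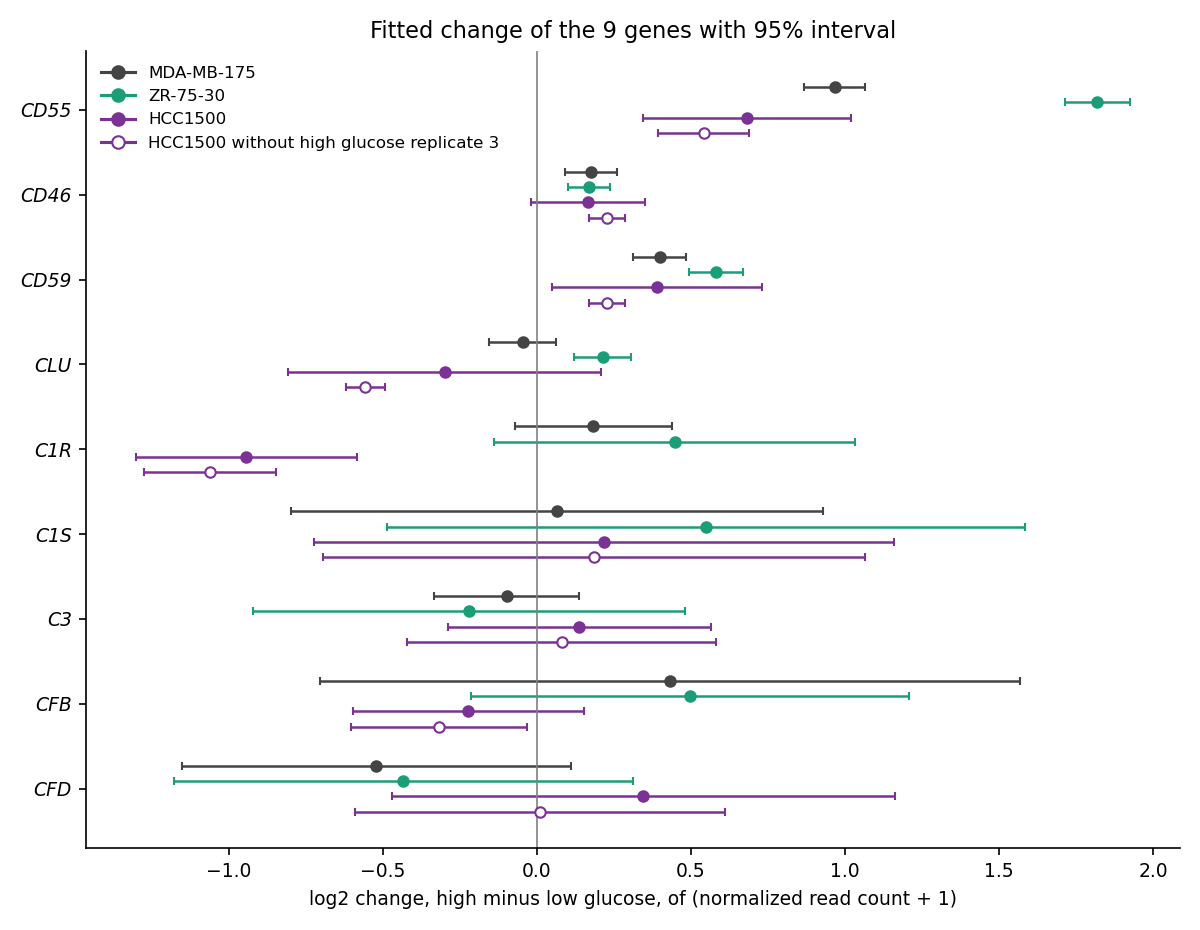
Fitted log2 change from low to high glucose (horizontal axis, on the scale of normalized read count + 1) of the 9 genes with 95% interval in HCC1500 (purple, open without high glucose replicate 3), ZR-75-30 (green) and MDA-MB-175 (grey). CD55, at 1.82 in ZR-75-30, lies farthest to the right, and C1R in HCC1500, at -0.94, farthest to the left of the fits on all samples.

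Among themselves the lines held different sets of these genes. At low glucose CD46 averaged 4631 ± 191 in MDA-MB-175 (SD, n = 4), with 5430 ± 74.4 for ZR-75-30 and 1666 ± 26.2 for HCC1500, and CD59 averaged 1026, 1023 and 2419. HCC1500 therefore had the lowest CD46 and the highest CD59, without overlap with the other lines. As deposited, CD59 overlapped between MDA-MB-175 and ZR-75-30, with a log2 difference of -0.0048 ± 0.03 (SE, 95% interval -0.08 to 0.07). CD55 was ordered MDA-MB-175 (315), ZR-75-30 (227) and HCC1500 (130) without overlap at low glucose. At high glucose the first and second places changed over, to 802 in ZR-75-30, 617 in MDA-MB-175 and 212 in HCC1500. CLU averaged 1836, 2836 and 2486 in the same order as CD46. The higher CD46 of ZR-75-30 over MDA-MB-175 (log2 difference 0.23) became -0.01 after rescaling to CPM, and the higher CLU of ZR-75-30 over HCC1500 (0.19) turned to -0.17, so the order of these neighbours depends on the scaling. The same holds for CD59 of ZR-75-30 against MDA-MB-175, which was called lower after rescaling to CPM (-0.24) and higher with median-of-ratios scaling, edgeR and DESeq2 (0.09 to 0.10).

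C3 was highest in MDA-MB-175, where its 62.0 compared with 7.02 in ZR-75-30 and 8.27 in HCC1500, whose samples overlapped. CFB was highest in HCC1500, with 49.4 against 5.54 in MDA-MB-175 and 3.29 in ZR-75-30, which overlapped. That overlap came from MDA-MB-175 low glucose replicate 4, where CFB was listed at 0 and the second CFB gene ID at 5.60. Both gene IDs share 2249 exonic bases on the same strand. Added together, they held 5.60 to 10.8 in MDA-MB-175 and 2.84 to 4.99 in ZR-75-30, without overlap. Without that replicate, limma called CFB lower in ZR-75-30 than in MDA-MB-175. C1R was highest in HCC1500 (121), intermediate in MDA-MB-175 (43.7) and lowest in ZR-75-30 (11.2), without overlap. C1S averaged 2.89 in HCC1500, 2.65 in MDA-MB-175 and 0.846 in ZR-75-30, and CFD 5.64, 12.1 and 5.29, and their samples overlapped in most pairs of lines. Of the 9 rows tested, limma called 7 between ZR-75-30 and MDA-MB-175, 8 between HCC1500 and MDA-MB-175 and 7 between ZR-75-30 and HCC1500, against 73.1%, 80.6% and 80.4% of all genes. Between ZR-75-30 and MDA-MB-175 the share of higher among all calls was 39.4% as deposited, and rescaling to CPM made it 28.7%.

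Per kilobase of transcript (the canonical transcript, or the longest for C1R), CD46 held 1395 normalized read counts in MDA-MB-175 at low glucose, against 1636 (ZR-75-30) and 502 (HCC1500). CLU held 668, 1032 and 904, CD59 136, 135 and 320, and CD55 122, 87.6 and 50.2. The levels of C1R per kilobase were 20.7, 5.30 and 57.4, so that in HCC1500 it stood above CD55. C3, CFB, CFD and C1S held between 0.316 and 19.9 per kilobase. With the length of all exons in place of 1 transcript, CLU ranked above CD46 in ZR-75-30 as well as in HCC1500, and CD59 above CD46 in HCC1500.

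To see which genes moved most like the 3 most abundant members, each gene's log2 value was centred within its line and correlated over samples. The coefficients mix the glucose difference with the replicate spread, and are descriptions over samples that share lines and treatment. Over 24 samples CD46 was closest to PICALM, a clathrin adaptor (r = 0.95), ARPP19 (0.95) and SWAP70 (0.95). CLU was closest to ETHE1, a mitochondrial sulfur dioxygenase (0.99), NDUFV1, a subunit of respiratory complex I (0.98), and PSME1, a proteasome activator (0.98). CD59 was closest to EEF1A1, a translation elongation factor (0.98), FUCA2, a fucosidase (0.98), and DDIT3, a stress-response transcription factor (0.98). Without HCC1500 high glucose replicate 3 (23 samples), PICALM stayed among the nearest 3 of CD46 with 0.96, ETHE1 and NDUFV1 among those of CLU with 0.98 and 0.97, and EEF1A1 among those of CD59 with 0.98. The other places were taken by SAT1 and ATP6V1C1, LGALS3BP, and DRAM1 and CTSL1.

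The rest of the complement system was examined on a list of 50 genes, of which 24 were in the table. This list and the next were also chosen with earlier results of these samples known, so their p-values are not independent support. High glucose called 3 higher and 2 lower among 17 tested in MDA-MB-175, 2 higher and 3 lower among 14 in ZR-75-30, and 1 higher and 4 lower among 16 in HCC1500 (limma, adjusted p under 0.05). Without replicate 3 the last count was 1 higher and 6 lower among 15. Over all genes 25.7%, 46.0%, 20.5% and 58.5% were called in these fits, and nothing particular to the list is read from its counts. The median log2 changes were 0.14, -0.01 and -0.07, beside -0.02, 0.01 and -0.06 over all genes.

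C5, the precursor of the anaphylatoxin C5a and of the terminal pathway, was the only gene of this list called in the same direction in all 3 lines, as were 3.32% of all genes in the lower direction (6.74% without replicate 3, where C5 was again the only one). It fell from 71.7 to 53.7 in MDA-MB-175 (log2 change -0.42 ± 0.11, limma adjusted p = 0.00843), from 49.2 to 37.4 in ZR-75-30 (-0.38 ± 0.14, adjusted p = 0.0380) and from 43.99 to 21.9 in HCC1500 (-0.98 ± 0.14, adjusted p = 0.00219). No low glucose sample of C5 overlapped a high glucose sample in any line. The ZR-75-30 call was the weakest: leaving out low glucose replicate 3 gave -0.29 with a limma adjusted p of 0.131. It was also lost without low glucose replicate 4 or high glucose replicates 1 or 4. DESeq2 on recovered reads did not call C5 in ZR-75-30 either, so with that tool C5 was not called in all 3 lines.

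C1RL, the C1r-like protease next to C1R, went in opposite directions. In MDA-MB-175 it rose from 149 to 180 (log2 change 0.27 ± 0.07, limma adjusted p = 0.00856) and in ZR-75-30 from 15.4 to 25.1 (0.67 ± 0.20, adjusted p = 0.00917). In HCC1500 it held 171, 183, 161 and 184 at low glucose and 94.98, 90.5, 92.1 and 79.9 at high glucose. That is a fall of -0.96 ± 0.10 (limma adjusted p = 0.000368), in which replicate 3, at 92.1, lay among the others. The glucose response of C1RL differed between lines (limma F test of the interaction, adjusted p = 1.58e-07).

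SUSD4, a membrane protein that inhibits the C3 convertase, fell in 2 lines. It went from 331 to 269 in ZR-75-30 (log2 change -0.30 ± 0.05, limma adjusted p = 0.000154) and from 1022 to 542 in HCC1500 (-0.93 ± 0.13, adjusted p = 0.00135; 491 at high glucose and -1.06 without replicate 3). In MDA-MB-175 it held 74.4 and 82.0 and was not called (adjusted p = 0.334). The response differed between lines (limma interaction, adjusted p = 5.05e-06).

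The other calls belonged to 1 or 2 lines. THBD, thrombomodulin, which promotes the inactivation of C3b, rose in MDA-MB-175 from 46.6, 56.3, 58.1 and 42.2 to 110, 111, 113 and 108 (log2 change 1.12 ± 0.11, limma adjusted p = 1.25e-06), and its levels in the other lines were under 5 on average. Thrombomodulin is also an endothelial gene, and of the endothelial markers in that line CDH5 rose from 18.8 to 29.2 (adjusted p = 0.0102), VWF fell from 50.5 to 35.8 (adjusted p = 0.00927) and KDR held 17.1 and 25.1 (adjusted p = 0.0555, all limma). Their part in the result was not tested. ITGB2, the shared chain of complement receptors 3 and 4, rose there from 69.98 to 87.6 (0.32 ± 0.08, adjusted p = 0.0101). In the fit on all 24 samples the MDA-MB-175 calls of ITGB2, C1RL and C1QBP were lost (limma adjusted p = 0.634, 0.143 and 0.359), as was that of C1QBP in ZR-75-30 (0.0756). C1QBP, which binds C1q and resides largely in mitochondria, fell from 388 to 325 in MDA-MB-175 (-0.25 ± 0.05, limma adjusted p = 0.00184) and from 631 to 489 in ZR-75-30 (-0.36 ± 0.05, adjusted p = 6.03e-06). C4B rose in ZR-75-30 from 11.4 to 23.4 (1.04 ± 0.28, limma adjusted p = 0.00561), with the caution that C4A and C4B are near-identical and C4A held 23.7 and 25.4 (adjusted p = 0.865). FCN2, a lectin pathway recognition protein, was listed at 0 in all samples of the other lines and fell in HCC1500 from 11.8 to 4.49 (-1.24 ± 0.24, limma adjusted p = 0.00810). C2, named after its values were seen because it was the only higher call in HCC1500, rose there from 1.98 to 9.15 (1.75 ± 0.22, limma adjusted p = 0.00103), and it shares exonic bases with the second CFB gene ID.

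**Figure D4:**
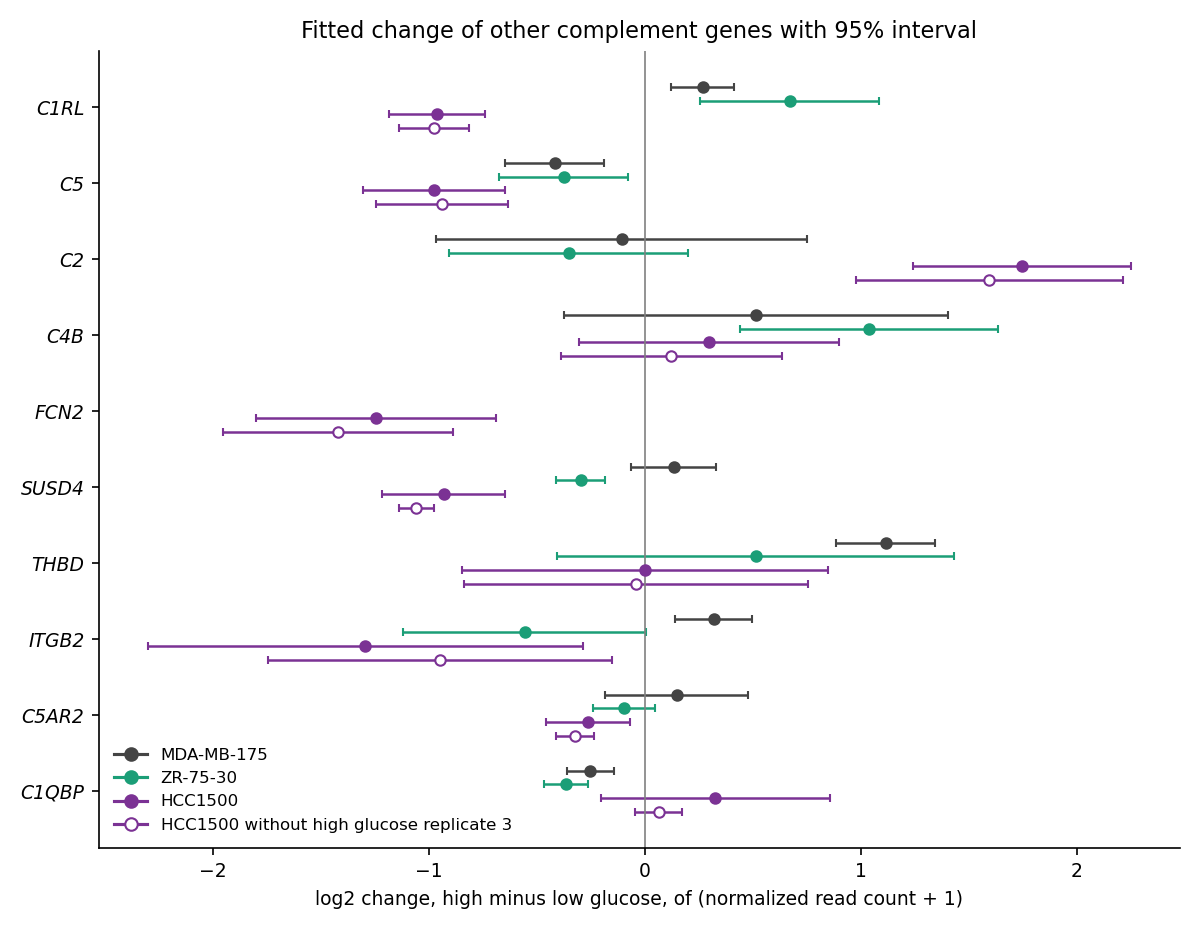
Fitted log2 change from low to high glucose (horizontal axis, on the scale of normalized read count + 1) with 95% interval of 10 other complement genes in HCC1500 (purple, open without high glucose replicate 3), ZR-75-30 (green) and MDA-MB-175 (grey); a missing point was under the filter on low values. C5 lies left of 0 in all 3 lines, and C1RL lies left of 0 in HCC1500 and right of it in the other lines.

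The interaction test called 8 of 20 list genes, against 29.3% of all genes. Of these, FCN2 was at 0 in the other lines and passed the filter through HCC1500 alone, so no difference in response is read from its call (adjusted p = 0.000298). Besides C1RL and SUSD4 the others were C2 (adjusted p = 0.00183), C5 (0.0141), C5AR2 (0.0190), ITGB2 (0.0221) and C1QBP (0.0309), all from limma. C5AR2, the second receptor of C5a, averaged 457 at low and 382 at high glucose in HCC1500, 193 and 181 in ZR-75-30, and 19.8 and 22.0 in MDA-MB-175. It was not called in a single line with all samples, and in HCC1500 without replicate 3 it was called lower (-0.32 ± 0.04, limma adjusted p = 2.23e-06).

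Between lines at low glucose, 18, 14 and 14 of 19 tested list genes were called (ZR-75-30 against MDA-MB-175, HCC1500 against MDA-MB-175, and ZR-75-30 against HCC1500), beside 73.1%, 80.6% and 80.4% of all genes. SUSD4 averaged 1022 in HCC1500, 331 in ZR-75-30 and 74.4 in MDA-MB-175, and C5AR2 457, 193 and 19.8 in the same order. THBD averaged 50.8 in MDA-MB-175, 4.29 in HCC1500 and 1.28 in ZR-75-30, and C1QBP 631 in ZR-75-30, 452 in HCC1500 and 388 in MDA-MB-175. Every pair of lines was called for each of these 4 genes (limma, adjusted p of 0.00479 or less).

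Since CD55 and CD59 need a GPI anchor, the 28 genes that build and attach it were tested as well, and all 28 passed the filter. At high glucose 1 was higher and 8 lower in MDA-MB-175, 3 higher and 7 lower in ZR-75-30, and 1 higher and 5 lower in HCC1500, or 1 higher and 19 lower without replicate 3 (limma, adjusted p under 0.05). The median log2 changes were -0.15, -0.08, -0.19 and -0.40, beside -0.02, 0.01, -0.06 and -0.12 over all genes tested. Over all genes 13.7%, 22.7%, 13.0% and 37.7% were called lower in these fits, and nothing particular to the list is read from its counts. Of the 28 genes 3, PIGM, PIGN and PIGX, were called lower in all 3 lines, as were 3.32% of all genes, a group singled out after its values were seen. Without replicate 3 PGAP3 joined them, beside 6.74% of all genes.

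PIGM, a mannosyltransferase, and PIGX, which stabilizes it, fell from 274 to 157 and from 402 to 332 in ZR-75-30 (log2 changes -0.80 ± 0.06 and -0.28 ± 0.05, limma adjusted p = 2.12e-09 and 8.62e-05). In HCC1500 PIGX fell from 662 to 438 (-0.61 ± 0.12, adjusted p = 0.00847). PIGN, an ethanolamine phosphate transferase, fell there from 1381 to 801 (-0.80 ± 0.12, limma adjusted p = 0.00227). PIGW, an inositol acyltransferase, fell in ZR-75-30 from 49.9 to 26.7 (-0.87 ± 0.14, adjusted p = 5.20e-05). In MDA-MB-175 the 2 largest called falls were those of PGAP3, a remodelling enzyme (-0.34 ± 0.09, limma adjusted p = 0.00837), and PIGS, a subunit of the transamidase that attaches the anchor (-0.30 ± 0.05, adjusted p = 0.000177). The largest called rises were PIGA, a subunit of the enzyme of the first step, in MDA-MB-175 (0.25 ± 0.09, limma adjusted p = 0.0442), PIGB and PGAP2 in ZR-75-30 (0.50 ± 0.09 and 0.29 ± 0.09, adjusted p = 0.000119 and 0.00868), and DPM1, which makes the mannose donor, in HCC1500 (0.48 ± 0.14, adjusted p = 0.0455; 0.33 ± 0.04, adjusted p = 5.40e-07 without replicate 3). The call of PIGA was lost without low glucose replicate 2 or 3 or high glucose replicate 1, 3 or 4 (limma adjusted p up to 0.138), and that of DPM1 without any 1 of the samples other than high glucose replicate 3 (adjusted p up to 0.115). Counting other settings too, the PIGA call was lost in 9 of 18 alternatives and the DPM1 call in 8 of 18. In the fit on all 24 samples the calls of PGAP3 in MDA-MB-175 and PGAP2 in ZR-75-30 were lost (limma adjusted p = 0.147 and 0.0873).

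**Figure D5:**
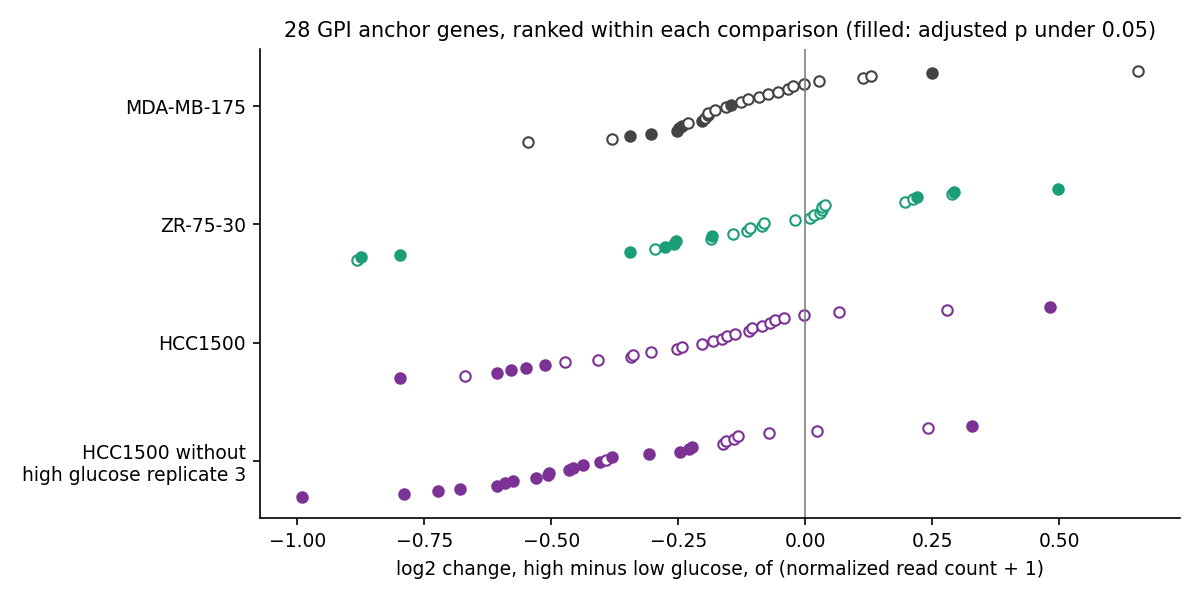
Fitted log2 change from low to high glucose (horizontal axis, on the scale of normalized read count + 1) of 28 GPI anchor genes, ordered by size within each row, with a row per line and a last row for HCC1500 without high glucose replicate 3; filled points have a limma adjusted p under 0.05. From the top row down, 8, 7, 5 and 19 filled points lie left of 0 and 1, 3, 1 and 1 right of it.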

How the data were processed

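RNA of 24 samples (3 lines, 2 glucose levels, 4 replicates) was sequenced. The deposited table holds normalized read counts, a signal per gene that the authors scaled by 1 factor per sample, which is not given in the sources used here. Values divided by the value of 1 read gave whole reads for 100% of values (tolerance 0.1). The submitters' processing notes name hg38 and edgeR, while the study's methods give hg19 for tumor libraries, so the build behind this table is not settled. Whether counting used strand is not given in the sources used here. In the table, 9 lines split the gene symbol from its ID and were rejoined.

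Values were tested as log2(value + 1) with limma 3.58.1 (R 4.3.3, trended empirical Bayes), per line for glucose, on the low glucose samples for lines and on all 24 for the interaction, over genes of at least 0.5 in at least 4 samples, with Benjamini-Hochberg adjustment over all genes and a threshold of 0.05. Alternatives used edgeR 4.0.16 and DESeq2 1.42.0 on recovered reads, other pseudocounts, filters, scalings and samples. The script was tested on simulated data. The members and lists were chosen with earlier results of these data known. Named were all 9 genes, complement genes called with a group mean of at least 10 (at most 8 per line; between lines, called in every pair with a mean of at least 100), the 2 largest called rises and falls of GPI genes per line, the 3 nearest genes of the 3 most abundant members (mean of at least 10), and TXNIP. For the line comparisons, 1 gene that met this rule is not reported here. Replicate numbers did not pair samples: deviations of same-numbered samples correlated at -0.05 to 0.16, where every pair over 0.1 was required.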

Additional observations from a re-analysis of the deposited data

Results flagged for a closer look

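In 3 groups of 4 samples, 1 sample lay far from the other 3 (gap over range 0.856 to 0.965, past the 95% critical value). CD59 in HCC1500 high glucose replicate 3 was 4438, against 2805 to 2862 in the others. CLU in the same sample was 3445, against 1631 to 1725. CFB in MDA-MB-175 low glucose replicate 4 was listed at 0, against 6.82 to 7.97, while the second gene ID of that symbol held 11 reads there. In all 54 groups were examined, and chance flags about 1 in 20 groups.

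The glucose response differed between the lines for 6 named complement genes (limma interaction, adjusted p): C1RL (1.58e-07), SUSD4 (5.05e-06), C5 (0.0141), C5AR2 (0.0190), ITGB2 (0.0221) and C1QBP (0.0309). Without HCC1500 high glucose replicate 3 each stayed under the threshold, with 0.0163 for ITGB2 as the highest. For C5AR2, ITGB2 and C1QBP at least 1 alternative gave a p above it, up to 0.0943, 0.0525 and 0.0609. In the fit on all 24 samples, which the interaction test uses, the MDA-MB-175 calls of ITGB2 and C1QBP were lost (limma adjusted p = 0.634 and 0.359). FCN2 had 0.000298 in the same test (up to 1 under an alternative), but it was at 0 in MDA-MB-175 and in ZR-75-30 and passed the filter through HCC1500 alone, so no difference in response is read from it.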

How the results depend on the processing

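Counts of called genes moved by over 1.5 times under few alternatives. Fitting all 24 samples together called 2 other complement genes in MDA-MB-175 (5 in the fit per line) and 9 in HCC1500 (5), and 3 GPI anchor genes in MDA-MB-175 (9) and 5 in ZR-75-30 (10). DESeq2 called 4 GPI anchor genes in MDA-MB-175. Leaving out 1 sample gave 4 to 9 GPI anchor genes in MDA-MB-175 (4 or 5 without low glucose replicate 2 or high glucose replicate 1, 3 or 4) and 4 to 20 in HCC1500 (20 without high glucose replicate 3). The cause was not tested. Over all genes the fit on 24 samples called 2011 in place of 4368 in MDA-MB-175 and 5842 in place of 3350 in HCC1500. After rescaling to CPM, CD46 of ZR-75-30 against MDA-MB-175 went to -0.0054 and CLU of ZR-75-30 against HCC1500 to -0.17. Rescaling moved the median of all genes by over 0.1 only between lines. Of the values of the 9 genes under alternatives that kept all samples, 322 moved by less than 1 SD, 49 by more and 2 reversed. Only differences called in the main fit could count as reversed. Changes of sign in uncalled ones, such as CD59 of ZR-75-30 against MDA-MB-175, are among the 322 and 49. Calls of named genes were lost in 16 of the fits without 1 sample and in 15 others.

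A replicate block left 5 other complement genes called in each line, and 5 GPI anchor genes in HCC1500, 8 in MDA-MB-175 and 11 in ZR-75-30, and the interaction called 7. Over all genes in HCC1500 the block gave 1964 calls in place of 3350. The samples share only a number: 1, 1 and 2 of 4 samples correlated best with their own.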

Other observations

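HCC1500 high glucose replicate 3 differed from the other high glucose samples by gene. Its normalized read counts summed to 7319781 over all genes, against 5559394 to 5604083 in the others, so ratios above 1 are not particular to these genes. It held 2.77 times their mean for CFD, 2.04 times for CLU and 1.57 times for CD59. The ratios were 1.48 for CD55, 1.385 for C1R, 1.30 for CFB and 1.19 for C3, but 0.951 for C1S and 0.846 for CD46. Without MDA-MB-175 low glucose replicate 4, in which CFB was listed at 0, the log2 change of CFB in that line went from 0.43 to -0.33, and its interval with all samples ran from -0.70 to 1.57.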
